A study of Mus musculus with 4 samples.

Results

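The collagen alpha chain genes were taken as every gene of the deposited table whose symbol consists of Col, a number, the letter a and a number, which gave 44 of 56691 genes. By the type of collagen they encode, 11 were fibrillar, 6 basement membrane, 9 FACIT (fibril-associated collagens with interrupted triple helices) and 6 beaded filament genes. The remaining genes encode short chain network (3), multiplexin (2), transmembrane (4) and other (3) collagens. Of 45 genes listed by type, Col21a1 was not analysed here.

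Collagens are extracellular matrix proteins built from alpha chains that wind into a triple helix. Fibrillar chains form the cross-striated fibrils of bone, cartilage, tendon and skin, type IV chains form the sheet of the basement membrane around vessels, muscle and fat cells, and FACIT and beaded filament collagens attach to fibrils or to cells. In tumors of mesenchymal origin, collagen can be made by the tumor cells and by the stroma.

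RNA-seq was performed on 4 sarcomas of W/+ mice, 2 from mice given arsenic trioxide (ATO 1 and ATO 2) and 2 from control mice (PBS 1 and PBS 2), to ask how the transcriptome of the tumors differed with the drug. All 4 samples carry the genotype label p53R282W/+, which uses human residue numbering. The mice, of the strain C57BL/6N, were heterozygous for the matching germline substitution, made by CRISPR/Cas9 targeting, so that tumor and stroma alike descended from cells with 1 mutant allele. The ATO group drank water with 35 mg/L ATO from day 90 after birth until death, and the control group is labelled PBS and is called untreated by the study. Age at death, sex, tumor site and sarcoma type were not given in the labels for the 4 samples. The labels also attach to all 4 a culture protocol with dexamethasone, isobutylmethylxanthine and insulin, which the methods do not describe for sarcoma tissue. Nothing in the labels names a batch or says whether the 2 sarcomas of a group came from different mice, so p-values measure the spread between these samples only.

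Total counts were 18134000 in ATO 1, 15259695 in ATO 2, 17465090 in PBS 1 and 17971675 in PBS 2. The library of ATO 2 stood apart in its mitochondrial share, which was 14.7% of counts, against 2.59% in ATO 1, 1.98% in PBS 1 and 1.99% in PBS 2. Levels are given as FPKM, counts divided by exon length and library total, which allows genes to be compared within a sarcoma. Differences are log2 fold changes of ATO over PBS from edgeR on counts, and the order of the groups was read from CPM (counts scaled to library size) after TMM scaling.

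Collagen genes took 3.86% of all counts in ATO 1 (95% Wilson interval 3.85 to 3.87), 1.32% in ATO 2 (1.31 to 1.32), 5.40% in PBS 1 (5.39 to 5.41) and 2.15% in PBS 2 (2.14 to 2.16). The groups overlapped, with 2.59% ± 1.80 (SD, n = 2) in the ATO and 3.77% ± 2.29 (SD, n = 2) in the PBS sarcomas. The difference of −1.19 percentage points was smaller than either SD, and it became 0.436 without PBS 1, 0.0855 without ATO 2, −2.46 without ATO 1 and −2.81 without PBS 2. An exact permutation test of 2 against 2 sarcomas cannot give a p below 0.333.

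Col1a1, Col1a2 and Col3a1, which encode the chains of type I and type III collagen, carried most of these counts in 3 of the 4 sarcomas. When they were left out, a choice made after the values were seen, the share was 0.583% in ATO 1, 0.529% in ATO 2, 1.94% in PBS 1 and 1.62% in PBS 2. On this measure both ATO sarcomas lay below both PBS sarcomas. The 5 skeletal muscle markers summed to 11820 FPKM in ATO 1, 867 in ATO 2, 4.94 in PBS 1 and 99.97 in PBS 2. The 5 adipocyte markers summed to 206, 1032, 0.17 and 0.54 FPKM in the same order. Each of these markers lay above in the ATO sarcomas, and the part of muscle and fat in the share was not tested. Fewer cells of a collagen-producing type and less collagen RNA per cell cannot be told apart in bulk tissue.

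The makeup of the collagen transcripts differed widely among the 4 tumors. Fibrillar genes made up 92.7% of summed collagen FPKM in ATO 1, 62.5% in ATO 2, 76.2% in PBS 1 and 26.9% in PBS 2. Basement membrane genes made up 2.89%, 15.4%, 4.77% and 48.2% in the same order. Each group thus held 1 sarcoma with a larger and 1 with a smaller fibrillar share, and the groups overlapped for both types. Beaded filament genes contributed 1.83% in ATO 1, 9.82% in ATO 2, 11.6% in PBS 1 and 12.0% in PBS 2. Multiplexin genes reached 10.7% in PBS 2 and 5.67% in ATO 2, against 1.73% in PBS 1 and 0.242% in ATO 1, while FACIT genes stayed between 1.19% and 4.80%.

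**Figure D1:**
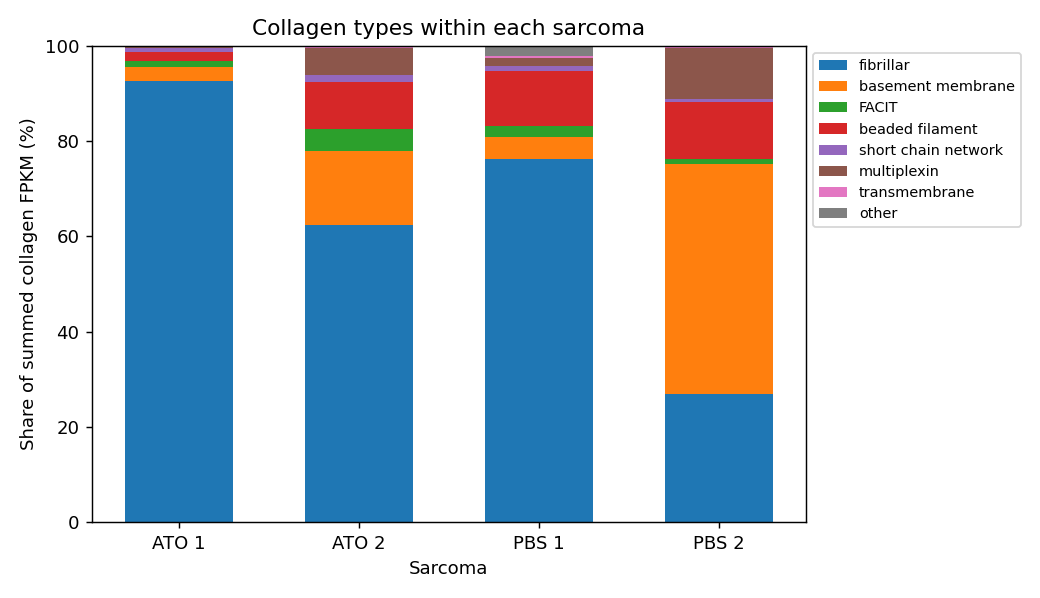
Share of summed collagen FPKM (%, vertical axis) by collagen type in each of the 4 sarcomas (horizontal axis), 1 stacked bar per sarcoma. The fibrillar part is largest in ATO 1 (92.7%) and smallest in PBS 2 (26.9%), where the basement membrane part is 48.2%.

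The collagen gene with the highest FPKM was Col1a1 in ATO 1 and PBS 1, Col3a1 in ATO 2 and Col4a1 in PBS 2. Ranked among all genes by FPKM, Col1a1 was at place 10 in ATO 1, 103 in ATO 2, 5 in PBS 1 and 92 in PBS 2. Col4a1 was at place 523, 295, 172 and 22 in that order. An FPKM of at least 1 was reached by 28 collagen genes in ATO 1, 24 in ATO 2, 27 in PBS 1 and 25 in PBS 2, and 13 genes lay below it in all 4 sarcomas. PBS 1 held the highest FPKM of 18 genes, ATO 1 of 13, PBS 2 of 8 and ATO 2 of 5.

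Of the 44 collagen genes, 40 passed the filter on low counts and were tested among 17188 genes, the exceptions being Col9a1, Col17a1, Col19a1 and Col26a1. With edgeR and Benjamini-Hochberg adjustment over all genes, 0 collagen genes and 0 genes in all (0.0%) had an adjusted p under 0.05, the smallest adjusted p being 0.570. At an unadjusted p under 0.05, Col4a6 and Col14a1 were higher and Col6a3 was lower in the ATO sarcomas, 2 and 1 of 40 genes, where 5.44% of all genes tested were higher and 3.07% lower. In either direction these were 3 of 40 collagen genes and 8.51% of all genes tested. Leaving out a sarcoma, the count was 1 of 40 without ATO 1 (8.01% of all genes), 10 without ATO 2 (6.89%), 2 without PBS 1 (5.4%) and 7 without PBS 2 (7.35%). Over the same genes it was 17 of 40 in DESeq2 (12.0% of all) and 19 in edgeR without the filter (13.7%). By adjusted p, DESeq2 called 753 of 18295 genes (4.12%) and edgeR without the filter 541 of 30859 (1.75%). Each called 3 collagen genes, of 43 and 44 with an adjusted p, namely Col2a1, Col11a2 and Col22a1, all of them high in ATO 1 alone. Within a group, expression varied between sarcomas with a biological coefficient of variation of 62.5%.

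The fitted difference was positive for 16 and negative for 24 of the 40 genes, with a median of −0.64 against −0.02 over all genes tested and a range from −3.91 to 7.34. Without PBS 1 the median of the collagen genes was 0.79, so its sign depended on that sarcoma. Both ATO sarcomas lay above both PBS sarcomas for 6 collagen genes (15.0%, against 19.7% of all genes tested) and below them for 8 (20.0%, against 20.2%). These shares were near or under those of the whole table.

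**Figure D2:**
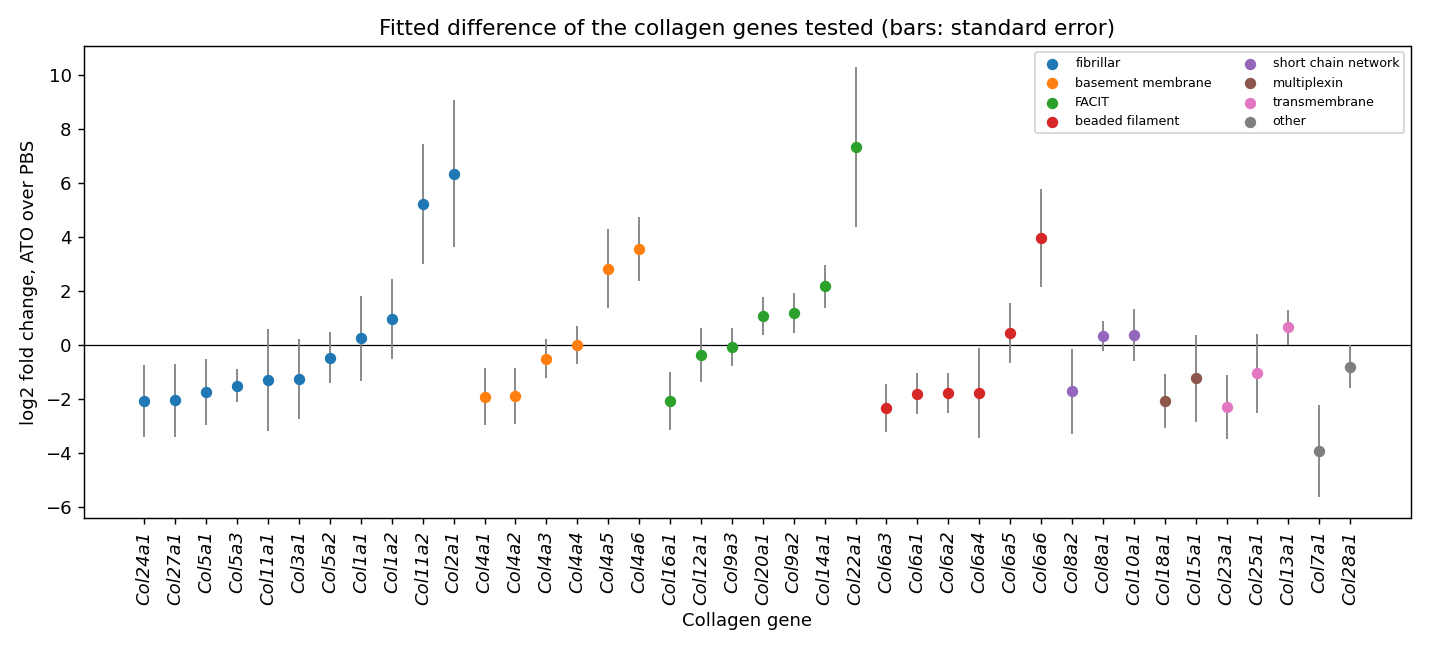
Log2 fold change of ATO over PBS (vertical axis) from edgeR for the 40 collagen genes tested (horizontal axis), with points coloured by collagen type and bars showing the standard error of the fit. Values run from −3.91 (Col7a1) to 7.34 (Col22a1), and the genes with the largest positive values have the longest bars.

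Type I collagen, the main fibril of bone, tendon and skin, is a trimer of Col1a1 and Col1a2 chains. Col1a1 was at 2413 FPKM in ATO 1, 315 in ATO 2, 2276 in PBS 1 and 273 in PBS 2. Col1a2 was at 1322, 178, 732 and 122 FPKM in the same sarcomas. For both genes ATO 1 and PBS 1 were high, ATO 2 and PBS 2 were low, and the groups overlapped. The log2 fold change of Col1a1 was 0.25 (SE 1.57, adjusted p = 0.975 in edgeR), and it turned to −1.62 without ATO 1 and to −0.58 without PBS 2. That of Col1a2 was 0.97 (SE 1.47, adjusted p = 0.878 in edgeR), and −0.87 without ATO 1. The FPKM ratio of Col1a1 to Col1a2 was 1.83 in ATO 1, 1.77 in ATO 2, 3.11 in PBS 1 and 2.23 in PBS 2.

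Col3a1, the chain of type III collagen of extensible tissues and vessel walls, did not follow type I. It was at 50.3 FPKM in ATO 1, 365 in ATO 2, 1077 in PBS 1 and 199 in PBS 2. ATO 1 was the lowest of the 4 for Col3a1 and the highest for Col1a1, so that the FPKM ratio of Col3a1 to Col1a1 ran from 0.0209 in ATO 1 to 1.16 in ATO 2, with 0.473 in PBS 1 and 0.729 in PBS 2. The log2 fold change of Col3a1 was −1.24 (SE 1.47, adjusted p = 0.841 in edgeR), with overlapping groups, and it was 0.46 without PBS 1.

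Type V chains join type I fibrils and limit their width. Col5a1 was at 91.0 FPKM in ATO 1, 38.4 in ATO 2, 451 in PBS 1 and 47.9 in PBS 2, and Col5a2 was at 138, 45.9, 231 and 59.4. PBS 1 was the highest for both, and the groups overlapped. Their log2 fold changes of −1.74 and −0.46 became 0.67 and 0.85 without PBS 1, and that of Col5a2 was 0.05 without ATO 2. Col5a3, the less widely expressed chain of this type, was at 9.26 FPKM in ATO 1, 15.1 in ATO 2, 28.7 in PBS 1 and 57.2 in PBS 2. For Col5a3 the ATO sarcomas lay below, with a log2 fold change of −1.50 (SE 0.612, adjusted p = 0.593 in edgeR) that was −0.93 without PBS 2. The groups did not overlap for this 1 of 11 fibrillar genes (9.09% below and 0.0% above, against 20.2% and 19.7% of all genes tested).

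The cartilage fibril genes were high in 1 sarcoma. Col2a1, the main collagen of cartilage, was at 21.3 FPKM in ATO 1, 0.05 in ATO 2, 0.03 in PBS 1 and 0.25 in PBS 2, from 3566, 7, 5 and 42 counts. Col11a2, which also forms part of cartilage fibrils, was at 101, 0.82, 0.57 and 2.38 FPKM. Only ATO 1 was high for these 2 genes, while ATO 2 lay within the range of the PBS sarcomas. In log2 terms the fold change was 6.36 for Col2a1 (SE 2.72, adjusted p = 0.597 in edgeR) and 5.24 for Col11a2 (SE 2.22, adjusted p = 0.597 in edgeR). Without ATO 1 both turned negative, to −1.09 and −0.43. DESeq2 gave adjusted p = 0.00966 and 0.0178 for the same genes, and over all alternatives the adjusted p ran from 0.00966 to 0.948 for Col2a1 and from 0.0178 to 0.940 for Col11a2.

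Col11a1, the partner chain of Col11a2 in cartilage that is also made in other mesenchymal tissue, was at 19.3 FPKM in ATO 1, 1.51 in ATO 2, 55.0 in PBS 1 and 1.07 in PBS 2. Its 2 high sarcomas were those with high Col1a1, 1 in each group. Col24a1 and Col27a1, fibrillar chains of developing bone and cartilage, were highest in PBS 1, at 16.2 and 35.1 FPKM, and between 0.89 and 3.91 FPKM in the other sarcomas. The log2 fold changes of Col11a1, Col24a1 and Col27a1 were −1.29, −2.05 and −2.03, and without PBS 1 they were 3.43, 1.03 and 1.44. Over the 11 fibrillar genes 4 differences were positive and 7 negative, with a median of −1.24 that became 1.44 without PBS 1.

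Markers of bone, cartilage and muscle were read beside the fibrillar genes. The 6 osteoblast markers summed to 488 FPKM in ATO 1, 4.93 in ATO 2, 13.0 in PBS 1 and 6.38 in PBS 2. Ibsp, a mineral-binding bone protein and the most abundant of them, was at 291 FPKM in ATO 1 and at most 0.35 in the others, and Sp7, the osteoblast transcription factor, had 0 counts in ATO 2 and PBS 1. Runx2, which acts before Sp7 in bone formation, was at 13.1 FPKM in ATO 1, 1.01 in ATO 2, 10.2 in PBS 1 and 2.92 in PBS 2, and made up most of the PBS 1 sum. The 6 chondrocyte markers summed to 38.4, 6.54, 6.41 and 8.10 FPKM in ATO 1, ATO 2, PBS 1 and PBS 2, most of the sum in ATO 1 coming from Comp (22.2 FPKM). Acan, the cartilage proteoglycan, reached 1.07 FPKM in ATO 1, while Matn1 and Snorc had 0 counts in ATO 2 and PBS 1 and Snorc also in PBS 2. Sox9, the cartilage transcription factor, was highest in PBS 1 and lowest in ATO 2, at 1.84 FPKM in ATO 1, 0.97 in ATO 2, 5.25 in PBS 1 and 4.43 in PBS 2 (log2 fold change −1.55, SE 0.529, adjusted p = 0.570 in edgeR). Skeletal muscle markers (5 genes, Acta1 the most abundant) summed to 11820 FPKM in ATO 1, 867 in ATO 2, 4.94 in PBS 1 and 99.97 in PBS 2, and for all 5 the ATO sarcomas lay above. PBS 1, with high Col1a1 and Col3a1, thus had the lowest muscle sum, and only ATO 1, with high Col2a1 and Col11a2, had a high osteoblast sum. The chondrocyte sum of PBS 1 was also the lowest but close to that of ATO 2. Most of it came from Sox9, which was highest in PBS 1. The part of these cell types in the collagen values was not tested.

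**Figure D3:**
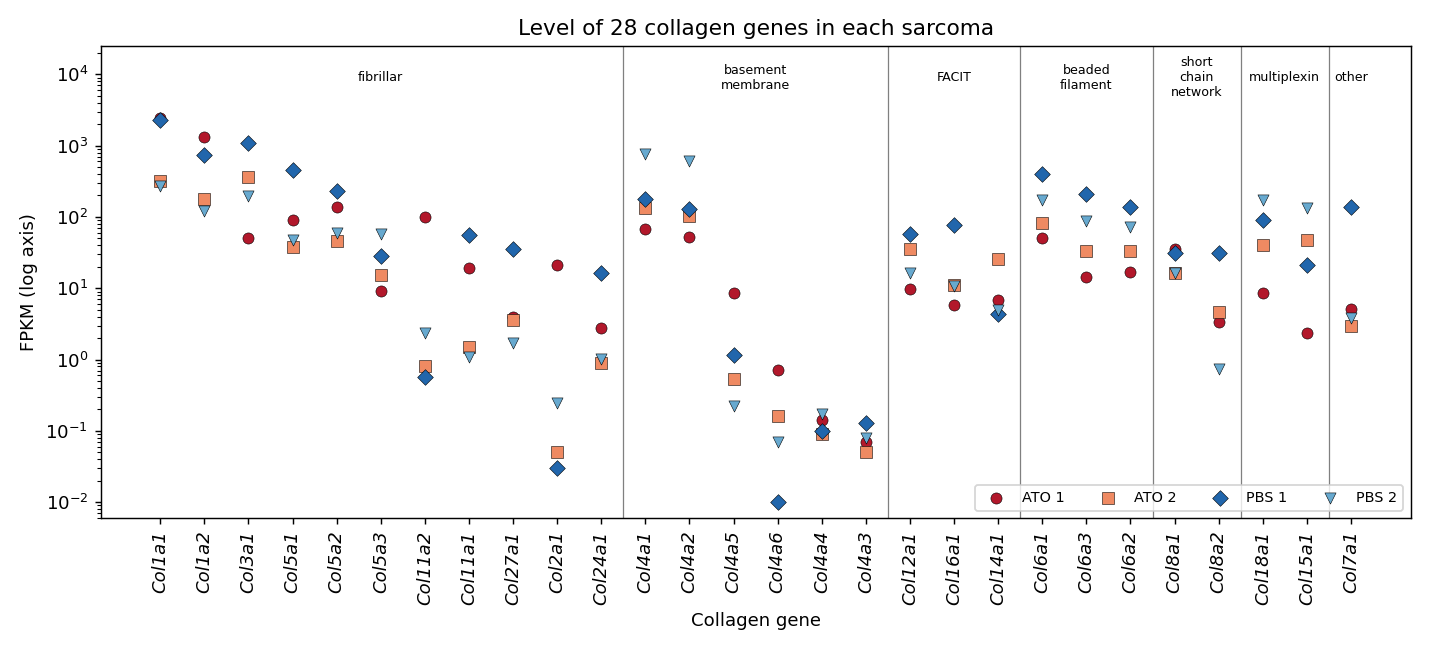
FPKM (vertical log axis) of 28 collagen genes (horizontal axis, grouped by type) in each sarcoma, with 1 point per sarcoma. Col1a1 lies near 2413 and 2276 in ATO 1 and PBS 1, and Col4a1 is highest in PBS 2 at 768.

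Col4a1 and Col4a2 encode the chains of the common type IV trimer found in nearly all basement membranes. Col4a1 was at 68.2 FPKM in ATO 1, 133 in ATO 2, 178 in PBS 1 and 768 in PBS 2. Col4a2 was at 52.6, 104, 128 and 602 FPKM in the same order. For both genes PBS 2 was far above the rest and ATO 1 was the lowest. In FPKM the ATO sarcomas lay below for both genes, whereas after TMM scaling ATO 2 and PBS 1 nearly met for Col4a1, at 1215 and 1218 CPM, and crossed for Col4a2, at 840 and 779 CPM. The log2 fold change was −1.90 for Col4a1 (SE 1.05, adjusted p = 0.662 in edgeR) and −1.89 for Col4a2 (SE 1.04, adjusted p = 0.660 in edgeR), and without PBS 2 these were −0.50 and −0.39.

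The Col4a1 and Col4a2 levels kept nearly the same proportion in the 4 sarcomas. Their FPKM ratio was 1.30 in ATO 1, 1.28 in ATO 2, 1.39 in PBS 1 and 1.28 in PBS 2, so that the highest was 1.09 times the lowest. Against type I the same gene varied widely, the FPKM ratio of Col4a1 to Col1a1 being 0.0283 in ATO 1, 0.423 in ATO 2, 0.0780 in PBS 1 and 2.81 in PBS 2, a range of 99.4 times.

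Col4a1 and Col4a2 lie head to head on chromosome 8 (GRCm38), Col4a1 on the minus strand at chr8:11198423-11312826 and Col4a2 on the plus strand at chr8:11312805-11449287. The gene models share 22 bases, and since the strand setting of the counting was not stated, reads from these bases could not be assigned to either gene. The promoter windows of the pair are shown because the levels of the genes kept nearly 1 proportion. Each window runs from 250 bases before to 50 bases after the start of the gene in RefSeq (GRCm38.p6), Col4a1 at chr8:11312777-11313076 on the minus strand and Col4a2 at chr8:11312555-11312854 on the plus strand, and the windows share 78 bases. Capitals mark the letters of a CCAAT box, of a GC box (spelled GGGCGG) or of a TATA box (spelled TATAAA) found on either strand, written 5′ to 3′ on the strand of the gene.
Col4a1: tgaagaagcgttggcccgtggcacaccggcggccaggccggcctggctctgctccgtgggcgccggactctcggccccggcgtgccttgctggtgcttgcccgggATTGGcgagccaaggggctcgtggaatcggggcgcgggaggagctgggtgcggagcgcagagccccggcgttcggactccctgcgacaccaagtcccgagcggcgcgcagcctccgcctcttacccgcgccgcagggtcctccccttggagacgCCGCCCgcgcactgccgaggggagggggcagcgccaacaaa
Col4a2: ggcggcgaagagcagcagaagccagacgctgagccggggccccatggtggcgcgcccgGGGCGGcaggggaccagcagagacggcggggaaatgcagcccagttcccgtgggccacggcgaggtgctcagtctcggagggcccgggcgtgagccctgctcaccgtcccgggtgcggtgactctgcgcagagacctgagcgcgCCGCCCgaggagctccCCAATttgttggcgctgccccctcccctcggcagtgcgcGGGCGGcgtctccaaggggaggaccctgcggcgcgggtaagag
The Col4a1 window held 1 CCAAT and 1 GGGCGG match, and the Col4a2 window 1 and 3, with 0 matches to TATAAA in both. Their GC content was 74.0% and 73.7%.

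The other type IV genes also form head-to-head pairs. Col4a3 and Col4a4, whose chains occur in the kidney glomerulus, lung and inner ear, are separated by 71 bases on chromosome 1 and were at 0.05 to 0.13 and at 0.09 to 0.17 FPKM. Col4a5 and Col4a6 are separated by 1308 bases on chromosome X. Col4a5 was at 8.51 FPKM in ATO 1, 0.54 in ATO 2, 1.17 in PBS 1 and 0.22 in PBS 2, with 1 high sarcoma and overlapping groups. Its log2 fold change of 2.84 (SE 1.47, adjusted p = 0.644 in edgeR) was 0.02 without ATO 1. Col4a6, a chain of smooth muscle and epithelial basement membranes, was at 0.72, 0.16, 0.01 and 0.07 FPKM, from 104, 20, 2 and 10 counts. Both ATO sarcomas lay above both PBS sarcomas for Col4a6, at low levels throughout, with a log2 fold change of 3.56 (SE 1.19, adjusted p = 0.570 in edgeR) that was 2.35 without ATO 1. The 6 basement membrane genes had 3 positive and 3 negative differences and a median of −0.24, which was 0.00 without PBS 2. After TMM scaling the ATO sarcomas lay above for 1 of the 6 (16.7%, against 19.7% of all genes tested). They lay below for 2 (33.3%, against 20.2%), namely Col4a3, at low counts, and Col4a1, where ATO 2 and PBS 1 nearly met.

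Endothelial markers, for cells that rest on a type IV basement membrane, summed over 5 genes to 74.2 FPKM in ATO 1, 151 in ATO 2, 102 in PBS 1 and 935 in PBS 2. Cdh5, the cadherin of endothelial junctions and the most abundant of them, was at 24.7, 62.7, 53.2 and 372 FPKM. PBS 2 was the highest for all 5 markers, as it was for Col4a1 and Col4a2. Mural cell markers (5 genes, Acta2 the most abundant) summed to 61.0, 225, 256 and 314 FPKM. None of the 5 mural markers had the order of the sum. Acta2 was highest in PBS 1, Myh11 in ATO 2, and Rgs5, Cspg4 and Notch3 in PBS 2. Adipocyte markers (5 genes, Cfd the most abundant) summed to 206 FPKM in ATO 1, 1032 in ATO 2, 0.17 in PBS 1 and 0.54 in PBS 2, with Lep at 0 counts in both PBS sarcomas and Plin1 in PBS 1. The ATO sarcomas lay above for all 5 adipocyte markers. The part of vessels, fat and muscle in the basement membrane collagen values was not tested.

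Among the FACIT genes, Col14a1, which binds the surface of type I fibrils, was at 6.89 FPKM in ATO 1, 26.0 in ATO 2, 4.42 in PBS 1 and 4.93 in PBS 2. ATO 2 was high and ATO 1 lay just above the PBS sarcomas, so the groups did not overlap. For Col14a1 the log2 fold change was 2.18 (SE 0.808, adjusted p = 0.580 in edgeR) and became 0.70 without ATO 2. The 5 fibroblast markers, of which Dcn was the most abundant, summed to 141, 470, 232 and 104 FPKM in ATO 1, ATO 2, PBS 1 and PBS 2. Lum and Dpt had the order of the sum, while Dcn, Pi16 and Pdgfra did not. Dcn was at 78.1 FPKM in ATO 1, 143 in ATO 2, 69.9 in PBS 1 and 51.2 in PBS 2. For Dcn the ATO sarcomas lay above, as for Col14a1, and the groups overlapped for the other fibroblast markers. Pdgfra was at 26.5, 11.7, 96.2 and 5.84 FPKM in the same order of sarcomas, highest in PBS 1. The part of fibroblasts in the Col14a1 values was not tested.

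Col12a1, a fibril-associated chain of dense connective tissue, was at 9.67 FPKM in ATO 1, 35.4 in ATO 2, 57.7 in PBS 1 and 16.6 in PBS 2, with overlapping groups. Its log2 fold change of −0.36 was 0.33 without ATO 1 and 0.82 without PBS 1. Col16a1, a minor fibril-associated chain, was at 5.77, 11.1, 76.8 and 10.8 FPKM. PBS 1 alone was high for Col16a1, and its log2 fold change of −2.06 (SE 1.07, adjusted p = 0.644 in edgeR) was −0.02 without PBS 1. Col22a1, found at muscle-tendon and cartilage junctions and named here after its values were seen, was at 32.2 FPKM in ATO 1, 0.11 in ATO 2, 0.01 in PBS 1 and 0.21 in PBS 2, from 5377, 15, 1 and 35 counts. ATO 1 alone was high, as for Col2a1 and Col11a2. For Col22a1 the log2 fold change was 7.34 (SE 2.95, adjusted p = 0.592 in edgeR) and was 0.39 without ATO 1. Its adjusted p ran from 0.00288 in DESeq2 to 0.969 without ATO 1. Tendon markers (3 genes, Scx the most abundant) summed to 6.44, 4.19, 6.57 and 2.28 FPKM.

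Col9a2, Col9a3 and Col20a1 stayed under 1 FPKM in the 4 sarcomas, and Col9a1 and Col19a1 reached 0.42 FPKM in ATO 1 from 39 and 53 counts, with at most 3 counts in each other sarcoma. Over the 7 FACIT genes tested, 4 differences were positive and 3 negative, with a median of 1.08, the value of Col20a1, whose overlapping gene 9230112E08Rik had more counts than it did. The ATO sarcomas lay above for 3 of the 7 (42.9%, against 19.7% of all genes tested) and below for 0 (0.0%, against 20.2%). These 3 were Col14a1 and, under 1 FPKM in each sarcoma, Col9a2 and Col20a1. Col9a2 had 40 counts in ATO 1, 14 in ATO 2, 13 in PBS 1 and 15 in PBS 2. The median was 0.39 without ATO 1, 0.70 without ATO 2 and 0.25 in limma on log2(FPKM + 1). All 5 skeletal muscle and all 5 adipocyte markers also lay above in the ATO sarcomas. The part of muscle and fat in the FACIT values was not tested.

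Among the beaded filament genes, Col6a1, Col6a2 and Col6a3 encode the 3 chains of the common type VI trimer, which links cells to the surrounding matrix. Col6a1 was at 50.9 FPKM in ATO 1, 82.6 in ATO 2, 396 in PBS 1 and 175 in PBS 2. Col6a2 was at 16.7, 33.4, 140 and 73.2 FPKM, and Col6a3 at 14.5, 33.2, 210 and 88.3 FPKM. The order was the same for the 3 genes, PBS 1 above PBS 2, then ATO 2, then ATO 1, and the groups did not overlap.

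In edgeR the log2 fold change was −1.78 for Col6a1 (SE 0.746, adjusted p = 0.597), −1.76 for Col6a2 (SE 0.730, adjusted p = 0.597) and −2.31 for Col6a3 (SE 0.881, adjusted p = 0.585). The sign was the same with each sarcoma left out, which follows from groups that do not overlap and adds nothing to it. The values nearest 0 were −1.07, −1.21 and −1.54, all without PBS 1. The FPKM ratio of Col6a1 to Col6a2 was 3.04 in ATO 1, 2.48 in ATO 2, 2.83 in PBS 1 and 2.39 in PBS 2, the highest 1.27 times the lowest. The ratio of Col6a1 to Col6a3 was 3.52, 2.49, 1.89 and 1.98. Col6a1 and Col6a2 are neighbours on chromosome 10, and Col6a3 lies on chromosome 1.

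The chains that can stand in for Col6a3 were low. Col6a4 ranged from 0.02 FPKM in ATO 1 to 3.14 in PBS 1, with the ATO sarcomas below. Col6a5 and Col6a6 stayed under 1 FPKM, with overlapping groups for Col6a5 and the ATO sarcomas above for Col6a6. Of the 6 beaded filament genes, 4 had the ATO sarcomas below (66.7%, against 20.2% of all genes tested) and 1 had them above (16.7%, against 19.7%). The median log2 fold change was −1.76, and it was −1.03 without ATO 1 and −1.14 without PBS 1. None of the 6 had an adjusted p under 0.05. All 5 skeletal muscle markers, which summed to 11820, 867, 4.94 and 99.97 FPKM in ATO 1, ATO 2, PBS 1 and PBS 2, and all 5 adipocyte markers, with sums of 206, 1032, 0.17 and 0.54, split the same sarcomas in the other direction. The part of muscle and fat in the type VI values was not tested.

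Col15a1 and Col18a1, the multiplexins of basement membrane zones, were both highest in PBS 2 and lowest in ATO 1. Col18a1 was at 8.55 FPKM in ATO 1, 39.9 in ATO 2, 90.1 in PBS 1 and 170 in PBS 2, and Col15a1 at 2.35, 47.7, 21.2 and 135. The groups did not overlap for Col18a1 (log2 fold change −2.05, SE 0.998, adjusted p = 0.630 in edgeR), whose value was −1.29 without ATO 1 and −3.79 without ATO 2. They overlapped for Col15a1, whose log2 fold change of −1.22 became 0.64 without PBS 2. The endothelial marker sum was likewise highest in PBS 2, at 935 FPKM, and lowest in ATO 1, at 74.2 FPKM. At the low end its members differed. Cdh5, Kdr and Emcn were lowest in ATO 1, while Pecam1 and Tek were lowest in PBS 1. All 5 skeletal muscle and all 5 adipocyte markers lay above in the ATO sarcomas. The part of vessels, muscle and fat in the multiplexin values was not tested.

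Col7a1, the anchoring fibril chain that ties epithelial basement membranes to the stroma beneath, was at 5.14 FPKM in ATO 1, 2.97 in ATO 2, 140 in PBS 1 and 3.84 in PBS 2. PBS 1 alone was high. The log2 fold change of Col7a1 was −3.91 (SE 1.69, adjusted p = 0.599 in edgeR), and 0.33 without PBS 1. The 5 epithelial markers, Krt8 the most abundant, summed to 2.01 FPKM in ATO 1, 14.4 in ATO 2, 0.81 in PBS 1 and 4.94 in PBS 2. In PBS 1 Krt5, Krt14 and Krt8 had 0 counts, while Epcam and Cdh1 were at 0.52 and 0.29 FPKM, and Krt5 had 0 counts also in ATO 1. The part of epithelial cells in the Col7a1 values was not tested.

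Col8a1 and Col8a2 form short chain networks in the cornea and in vessel walls. Col8a1 was at 35.6 FPKM in ATO 1, 16.3 in ATO 2, 31.1 in PBS 1 and 16.6 in PBS 2, the smallest spread of the genes above 10 FPKM on average. Its log2 fold change of 0.34 was −0.15 without ATO 1 and −0.05 without PBS 2. Col8a2 was at 3.33, 4.69, 31.3 and 0.73 FPKM, high in PBS 1 alone, and its log2 fold change of −1.70 became 2.77 without PBS 1. Col10a1, the chain of hypertrophic cartilage, stayed under 1 FPKM.

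The transmembrane gene Col23a1 was at 20.7 FPKM in PBS 1 and between 0.89 and 2.90 in the other sarcomas. Col13a1 was between 0.88 and 1.95 FPKM, with the ATO sarcomas above after TMM scaling and overlapping groups in FPKM. Col25a1 reached 1.05 FPKM in PBS 1, Col17a1 0.21 in ATO 2, Col28a1 2.46 in PBS 2 and Col26a1 0.11 in PBS 1. The 3 transmembrane genes tested had a median log2 fold change of −1.03, which was 0.98 without PBS 1.

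Leukocyte markers (5 genes, Cd68 the most abundant) summed to 150 FPKM in ATO 1, 288 in ATO 2, 202 in PBS 1 and 118 in PBS 2. Schwann cell markers (4 genes, S100b the most abundant) summed to 3.49, 30.1, 0.58 and 5.88 FPKM, with Sox10 at 0 counts in PBS 1.

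Before a collagen helix can form, prolines and lysines of the chains are hydroxylated, some lysines are glycosylated, and chaperones hold the trimer until it is exported and its propeptides are removed. The 34 genes listed for these steps, for collagen receptors and for breakdown gave 10 positive and 24 negative differences, with a median log2 fold change of −0.70 against −0.02 over all genes tested. The median was −0.34 without PBS 1, and −0.99 with total counts as the scale, where that of all genes was −0.28. In edgeR 0 of the 34 had an adjusted p under 0.05, and 3, all lower in the ATO sarcomas, had an unadjusted p under 0.05, where 3.07% of all genes tested were lower. The ATO sarcomas lay below for 14 genes (41.2%, against 20.2% of all genes tested) and above for 1, Pcolce2 (2.94%, against 19.7%).

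Of the 13 hydroxylation genes 12 had a negative difference, the exception being P3h2, where 8738 of 17188 genes tested were negative. For 8 of the 13 the ATO sarcomas lay below (61.5%, against 20.2% of all genes tested), and the median was −0.83. Among these was P4ha1, where ATO 2 and PBS 2 nearly met, at 123.3 and 125.5 CPM. The skeletal muscle and adipocyte markers, 5 of 5 in each list, lay above in the same 2 ATO sarcomas, and the part of these cells in the values of the 34 genes was not tested. Plod2, the lysyl hydroxylase of the telopeptides, was at 7.34 FPKM in ATO 1, 4.73 in ATO 2, 19.2 in PBS 1 and 17.0 in PBS 2. P4ha2, a catalytic subunit of prolyl 4-hydroxylase, was at 4.99, 6.20, 14.1 and 18.1 FPKM. For both genes the 2 sarcomas of a group were close to each other and the groups were apart. Both were named for an unadjusted p under 0.05 in edgeR, a rule that picks genes with such values. The log2 fold change was −1.33 for Plod2 (SE 0.372, adjusted p = 0.570 in edgeR) and −1.23 for P4ha2 (SE 0.415, adjusted p = 0.570 in edgeR). P4hb, the other subunit and a general disulfide isomerase, was the most abundant of the step, at 192, 148, 530 and 317 FPKM.

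Serpinh1, the collagen-specific chaperone, was at 181 FPKM in ATO 1, 191 in ATO 2, 441 in PBS 1 and 319 in PBS 2, with the ATO sarcomas below and a log2 fold change of −0.74 (SE 0.553, adjusted p = 0.735 in edgeR). Colgalt1, which glycosylates hydroxylysine, was at 31.6, 27.96, 44.4 and 45.5 FPKM, also without overlap. Pcolce, an enhancer of propeptide removal and the most abundant gene of that step, was at 61.0, 29.7, 181 and 29.0 FPKM, high in PBS 1 alone. Adamts3, a procollagen N-proteinase, was at 0.12, 0.05, 1.62 and 0.31 FPKM, with a log2 fold change of −3.26 (SE 1.14, adjusted p = 0.570 in edgeR).

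Among the receptors, Itgb1, the common beta chain of the collagen-binding integrins, was at 175 FPKM in ATO 1, 124 in ATO 2, 239 in PBS 1 and 445 in PBS 2, with the ATO sarcomas below. Ctsk, the collagen-degrading protease of osteoclasts, was at 590, 103, 677 and 46.4 FPKM. ATO 1 and PBS 1 were high for Ctsk and ATO 2 and PBS 2 were low, the same split as for Col1a1 and Col1a2.

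Promoter windows of 300 bases were found in RefSeq for 35 of the 44 collagen genes, 38 windows in all. The letters GGGCGG occurred on either strand in 23 of the 38 (60.5%), against 35.7% of 32851 promoters. CCAAT occurred in 13 (34.2%, against 37.4%) and TATAAA in 5 (13.2%, against 13.6%). No test was made of these shares, and a match describes the letters only. The windows of Col1a2 (chr6:4505368-4505667, plus strand) and Col3a1 (chr1:45311288-45311587, plus strand) are shown because these abundant fibrillar genes differed in their order across the sarcomas, with capitals marking the same letters.
Col1a2: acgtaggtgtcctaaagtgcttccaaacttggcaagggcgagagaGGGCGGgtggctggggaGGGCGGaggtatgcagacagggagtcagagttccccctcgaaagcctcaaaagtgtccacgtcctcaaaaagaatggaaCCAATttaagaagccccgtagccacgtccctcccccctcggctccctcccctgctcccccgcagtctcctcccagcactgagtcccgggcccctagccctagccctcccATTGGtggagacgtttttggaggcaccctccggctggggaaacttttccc
Col3a1: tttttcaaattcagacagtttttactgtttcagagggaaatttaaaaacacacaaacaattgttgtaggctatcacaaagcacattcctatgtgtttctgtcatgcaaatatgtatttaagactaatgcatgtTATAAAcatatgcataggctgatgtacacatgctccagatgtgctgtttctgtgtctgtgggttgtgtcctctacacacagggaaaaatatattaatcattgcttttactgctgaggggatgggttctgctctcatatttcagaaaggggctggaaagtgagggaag
The Col1a2 window held 2 CCAAT and 2 GGGCGG matches at a GC content of 61.0%, and the Col3a1 window 1 TATAAA match at 37.7%.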

How the data were processed

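Counts of 4 sarcomas were compared between the treatments that the labels name. The authors trimmed reads with cutadapt 1.9.1 after FastQC 0.10.1, aligned them to GRCm38 with HISAT2 2.0.1, counted them per gene with HTSeq and deposited the raw counts. The authors also deposited FPKM, which were recomputed from count, exon length and total count to within 0.005. The strand setting was not given in the sources used here, and 28 collagen genes overlap another gene. For 7 of them (Col4a1, Col4a2, Col4a3, Col9a3, Col10a1, Col20a1 and Col26a1) that gene had over 5% of their counts, so these values are uncertain. The counts compared are of whole genes, whatever the length of the overlap. For Col4a1 and Col4a2 that gene was the other of the pair, and their models share only 22 bases. Of 52073 genes shared with GENCODE M21 (GRCm38), 1472 (2.83%) had the same position in the table, so positions were taken from M21 by gene identifier. The labels and the methods name different RNA isolation and library kits.

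The count test was that of edgeR 4.0.16, run under R 4.3.3 (filterByExpr, TMM, quasi-likelihood F-test, Benjamini-Hochberg over 17188 genes, threshold 0.05). The 3 counts that a count of 0 allows were 0.165 to 0.197 CPM, which, like the intervals, cover counting error only. The members and lists were chosen with earlier results of these data known. Named with values were collagen genes whose mean FPKM reached 10 or whose unadjusted p was under 0.05 and all fibrillar and basement membrane genes, 28 in all. Machinery genes were named for an unadjusted p under 0.05 or the highest mean FPKM of their step, and Plod2, P4ha2 and Adamts3 came in by the former. Col22a1, Pcolce2, P3h2 and P4ha1 were named after their values were seen. So were the markers given beyond the most abundant of a list and the other low collagen genes given by range. Markers of 11 cell types were summed. Alternatives were DESeq2 1.42.0, its size factors or total counts in edgeR, no filter, the replicate number as a block, fits leaving out 1 sarcoma, and limma 3.58.1 on log2 FPKM with a pseudocount of 1 or 0.1. The tests were tried on simulated counts. Tables were made with pandas 2.3.3 and numpy 2.4.6 under Python 3.11.15, intervals with scipy 1.17.1 and figures with matplotlib 3.10.9.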

Additional observations from a re-analysis of the deposited data

How the results depend on the processing

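With edgeR as above, 0 genes passed, as they did with DESeq2 size factors, total counts, both limma fits and each sarcoma left out, ATO 2 included. DESeq2 called 753 genes and edgeR without the filter 541, each with 3 collagen genes, and the cause was not tested. The shared replicate numbers do not show a pairing in the labels, the series design speaks of before and after treatment, and the correlation of deviations of same-numbered sarcomas was 5.04e-05. With the replicate number as a block, 0 genes passed, 1165 of 17188 genes and 3 of 40 collagen genes had an unadjusted p under 0.05, and the sign was kept by 40 of 40 collagen genes. Those 3, Col4a5, Col5a3 and Col18a1, shared 0 genes with the 3 found without the block (Col4a6, Col14a1 and Col6a3). Scaling by total counts moved the median log2 fold change of all genes tested to −0.28, and limma on log2(FPKM + 0.1) or log2(FPKM + 1) to −0.27 and −0.18, against −0.02 with TMM.

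The median of the collagen genes ran from −1.09 to 0.79 with each sarcoma left out, the highest without PBS 1, and was −0.80 without Col1a1, Col1a2 and Col3a1, an alternative chosen after seeing the data. The collagen share of counts differed by −1.10 points without mitochondrial genes and by −0.68 points in summed FPKM. Over 28 named genes and 11 alternatives, 279 of 308 values kept their sign and side of the threshold, 25 turned and 4 passed it (Col2a1 and Col11a2 in DESeq2 and without the filter), and 12 genes had no turn. Col4a4, at 0.01, was −0.12 in limma on log2(FPKM + 0.1), −0.025 in limma on log2(FPKM + 1), −0.014 without the filter and −0.24 with total counts. With each sarcoma left out, log2 fold changes ran from −1.62 to 2.50 for Col1a1, −0.87 to 2.79 for Col1a2, −1.09 to 8.51 for Col2a1, −3.54 to 0.46 for Col3a1, −0.29 to 0.40 for Col4a4 and −2.59 to 0.67 for Col5a1. They ran from −1.27 to 0.85 for Col5a2, −4.87 to 0.33 for Col7a1, −0.15 to 0.88 for Col8a1, −2.67 to 2.77 for Col8a2 and −3.82 to 3.43 for Col11a1. The ranges were −0.43 to 6.58 for Col11a2, −1.82 to 0.82 for Col12a1, −4.90 to 0.64 for Col15a1, −2.96 to 1.03 for Col24a1 and −2.97 to 1.44 for Col27a1. A fit without 1 sarcoma assumes that the lone sample of its group varies like the others. The cause of these turns was not tested.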
